A study of Mus musculus with 6 samples.

Results

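The genes described here are 37 members of the autophagy machinery, chosen by symbol from the 19179 genes with a value in 6 libraries of mouse 4T1 breast carcinoma clones. All 37 were found, each once, and their transcript levels were compared between 2 kinds of clone. The stem-labelled clones (3 libraries) carry the tissue label breast cancer stem cell, and the other clones (3 libraries) carry the label breast cancer cell. 4T1 is a mammary carcinoma line from the BALB/C mouse strain that spreads spontaneously to distant organs. For both kinds, cells were seeded at 1 per well and grown for 14 days with no treatment named, and 10 clones of either kind, abbreviated SC and NSC, were picked. The labels name 3 independent experiments. They do not say what made a clone SC or NSC, or whether a library holds 1 clone or several.

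Autophagy encloses portions of the cytoplasm in a membrane that grows from the endoplasmic reticulum, closes into an autophagosome and fuses with a lysosome. A kinase complex around ULK1 starts the process, a class III phosphatidylinositol 3-kinase complex marks the site with the lipid PI3P, and WIPI proteins read that mark. ATG9 and ATG2 proteins supply lipids, and a ubiquitin-like conjugation system attaches proteins of the ATG8 family (LC3 and GABARAP) to the membrane. Cargo receptors such as p62, the product of Sqstm1, bind both the cargo and the ATG8 proteins. Much of the control of autophagy acts on the proteins, by phosphorylation and lipid attachment, which transcript levels do not show.

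Reads assigned to genes numbered 21196572 to 22838870 per stem-labelled library and 15357608 to 16830762 per library of the other clones. The authors' RPKM (reads per kilobase of gene length, scaled to a library total) rest on a total that is not described. Reads in genes were 0.658 to 0.757 of it in the stem-labelled libraries and 1.23 to 1.53 of it in the others, and mitochondrial transcripts took 0.964 to 1.23% and 2.42 to 7.78% of the reads in genes. Such differences in library make-up cannot be told apart from the kinds of clone. The mammary epithelial markers Krt8, Krt18, Epcam and Cdh1 stood above 1 RPKM in all 6 libraries, and Krt19 was at 0.0379 to 9.49 RPKM in the stem-labelled and 16.7 to 96.1 RPKM in the other clones. These 5 epithelial markers summed to 913 to 1400 RPKM in the stem-labelled and 1870 to 3460 RPKM in the other clones. Most of that sum was Krt8 and Krt18, and the part of the difference in the results was not tested. Cdh1 went the other way, at 59.8, 77.8 and 69.1 RPKM in the stem-labelled against 17.5, 16.7 and 13.7 RPKM in the other clones, and Epcam overlapped. Of the stem cell markers, Prom1 reached at most 0.0184 RPKM and Aldh1a3 at most 0.109 RPKM in any library, while Cd44, Cd24a, Itga6, Itgb1 and Procr were present in all. Aldh1a1 reached at most 1.03 RPKM. The 8 stem cell markers summed to 163 to 268 RPKM in the stem-labelled and 155 to 224 RPKM in the other clones. Within that sum Procr was lower in every stem-labelled library (9.24 to 14.8, against 21.4 to 30.6 RPKM). Cd44, Itga6 and Itgb1 were higher in every stem-labelled library, and Cd24a overlapped. The leukocyte marker Ptprc and the macrophage marker Csf1r stayed at or below 0.00916 and 0.0191 RPKM. The macrophage list held Cd68, a lysosomal protein not limited to macrophages, at 12.2 to 39.9 RPKM in stem-labelled clones and 6.08 to 29.3 RPKM in the others. The fibroblast list summed to 1.68 to 3.38 RPKM in the stem-labelled and 0.396 to 1.01 RPKM in the other clones, nearly all of it Pdgfra, while its markers Col1a1 and Dcn stayed at or below 0.0854 and 0.0298 RPKM. The leukocyte and endothelial lists summed to at most 0.414 and 0.0895 RPKM in any library.

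The autophagy transcripts did not move as 1 block. Of those for the ULK1 complex, 3 of 4 tested were called higher in the stem-labelled clones, Atg13 and Ulk1 among them. For the class III PI3K complex and its regulators, which include Uvrag of the endosomal form, 5 of 6 were, Atg14 among them. Once gene length and GC content were corrected for, 2 of 4 and 2 of 6 were. Transcripts of the ATG8 proteins and of their protease ATG4D were lower or did not pass the test, with Map1lc3a and Atg4d far lower. After that correction Atg4d was still called lower, but of the ATG8 genes Map1lc3b alone was, and Map1lc3a was not. Of the 37 genes, 35 reached 1 RPKM in at least 3 libraries and were tested. Of those, 16 were higher (45.7%), 5 were lower (14.3%) and 14 did not pass, at an adjusted p under 0.05 over all tested genes (limma on log2(RPKM + 1)). Over all 10097 tested genes 55.2% were called in either direction, 29.9% higher and 25.4% lower. Of the 16 higher genes, 6 were below 1 RPKM in at least 1 library of the other clones and reached the test through their stem-labelled libraries, namely Ulk2, Pik3r4, Atg14, Uvrag, Atg2b and Epg5. That held for 17.1% of the tested members and 11.7% of all tested genes. The filter leaned on the group where such genes were high, so the counts are a description. Only Epg5, below 1 RPKM in all libraries of the other clones, had to differ to be tested. With no filter 14 of the 37 genes were called higher and 5 lower. The median log2 fold change (stem-labelled minus other) was 0.52 for the 35 genes and 0.11 for all tested genes.

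The counts moved with the processing. Changes followed gene length over all genes and, less closely by rank, in the members (Spearman rho 0.49 and 0.24). Each change was therefore also computed after correcting every library for length and GC content. After that 9 of the 35 genes were higher and 7 lower, against 25.9% and 22.0% of all genes, and the medians were -0.01 and 0.07. When the values were rescaled to summed reads, 26 were higher and 3 lower, against 58.7% and 12.3% of all genes, and the medians were 1.32 and 0.86. Higher calls made up 76.2% of the members' calls and 54% of all calls on the deposited scale, 89.7% and 82.6% on rescaling, and 84% and 64.7% with upper-quartile scaling. The changes of 7 genes kept their direction and their call in each of the 16 alternative settings that tested them. These were Ulk1, Atg13, Atg14, Atg12 and Optn, all higher, and Atg101 and Atg4d, both lower. A filter of mean RPKM at least 5, 1 of the 16, left Atg14 and Optn out of the test. Fewer cells expressing a gene and less RNA per cell cannot be told apart in these bulk libraries.

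**Figure D1:**
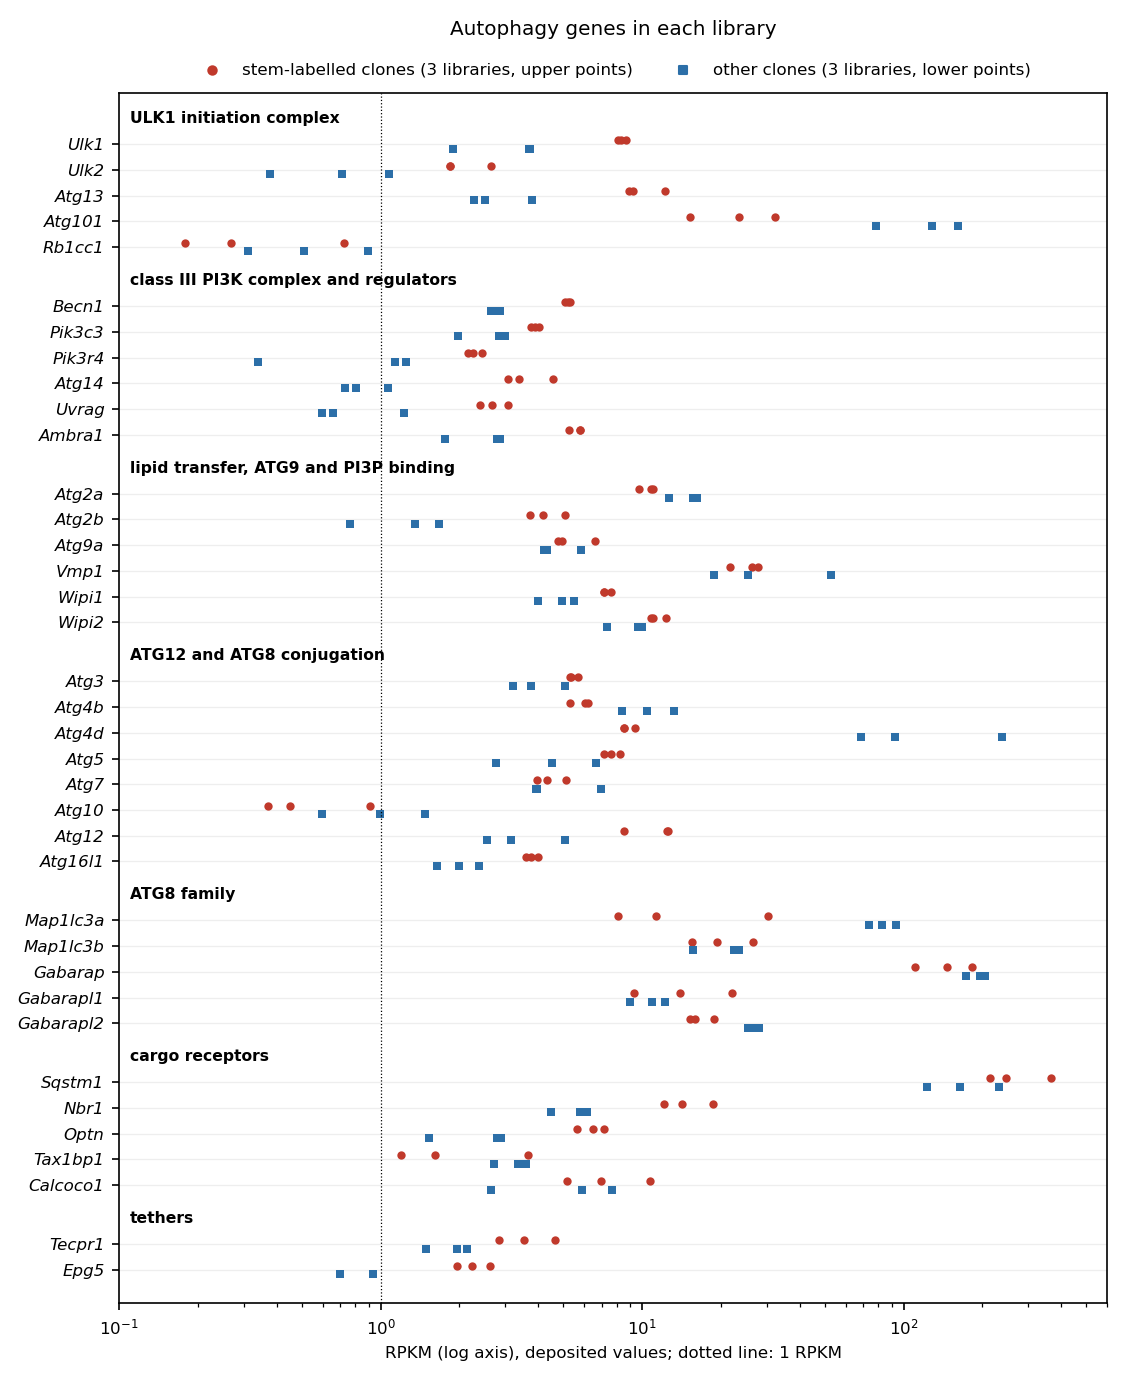
RPKM of the 37 autophagy genes in each library on a log axis, grouped by role, with the 3 stem-labelled libraries as upper red circles and the 3 libraries of the other clones as lower blue squares. Red circles lie right of all blue squares for 20 genes and left of them for 6, and the widest empty space between the groups is that of Atg4d.

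The promoters of 5 of the genes whose calls held are shown because they are 3 genes that were higher together and 2 that were lower. The windows run from 250 bases before to 50 bases after the annotated gene start, on build GRCm38.p6 (RefSeq), and 30 of the 37 genes had at least 1 such window. Capitals mark, on either strand, CACGTG (the E-box that TFEB and other factors bind), TGACNNNGC (the core of the antioxidant response element), GGGCGG (the GC box) and TATAAA (the TATA box).
Ulk1, chr5:110810032-110810331, minus strand: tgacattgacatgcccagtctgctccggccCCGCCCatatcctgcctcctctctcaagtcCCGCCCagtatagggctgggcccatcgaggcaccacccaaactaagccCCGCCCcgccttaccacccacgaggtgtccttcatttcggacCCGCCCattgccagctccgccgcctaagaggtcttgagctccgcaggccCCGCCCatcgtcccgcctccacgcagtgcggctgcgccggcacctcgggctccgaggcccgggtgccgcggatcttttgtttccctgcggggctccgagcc
Atg13, chr2:91710543-91710842, minus strand: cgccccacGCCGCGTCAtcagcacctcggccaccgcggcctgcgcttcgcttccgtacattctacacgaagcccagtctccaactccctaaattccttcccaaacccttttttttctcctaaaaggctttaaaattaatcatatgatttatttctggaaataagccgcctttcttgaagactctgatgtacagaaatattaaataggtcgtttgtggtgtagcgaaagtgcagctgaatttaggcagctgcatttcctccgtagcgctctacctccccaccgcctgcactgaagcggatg
Atg14, chr14:47568385-47568684, minus strand: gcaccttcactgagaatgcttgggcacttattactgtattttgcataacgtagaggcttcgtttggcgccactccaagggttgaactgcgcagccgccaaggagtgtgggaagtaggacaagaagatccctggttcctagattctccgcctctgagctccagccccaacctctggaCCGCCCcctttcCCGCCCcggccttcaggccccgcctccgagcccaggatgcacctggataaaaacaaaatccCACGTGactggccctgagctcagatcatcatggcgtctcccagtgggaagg
Atg4d, chr9:21265035-21265334, plus strand: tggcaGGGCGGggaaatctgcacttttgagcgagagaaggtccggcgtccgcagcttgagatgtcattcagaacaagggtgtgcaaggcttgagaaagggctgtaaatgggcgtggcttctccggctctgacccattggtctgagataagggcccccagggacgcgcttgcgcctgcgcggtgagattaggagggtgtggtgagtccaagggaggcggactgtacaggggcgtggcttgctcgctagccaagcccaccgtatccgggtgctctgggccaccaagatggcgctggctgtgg
Atg101, chr15:101284051-101284350, plus strand: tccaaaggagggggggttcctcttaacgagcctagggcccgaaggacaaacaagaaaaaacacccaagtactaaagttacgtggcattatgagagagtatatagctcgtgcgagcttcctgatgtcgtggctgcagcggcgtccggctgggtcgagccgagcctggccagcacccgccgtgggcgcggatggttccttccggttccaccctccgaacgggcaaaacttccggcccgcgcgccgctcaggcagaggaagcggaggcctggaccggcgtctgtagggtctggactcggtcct
The Ulk1 window holds 5 GC boxes, that of Atg14 holds 2 and 1 E-box whose letters begin 1 base before the gene start, and that of Atg13 holds 1 antioxidant response element core. The Atg4d window holds 1 GC box, and none of the 4 motifs occurs in that of Atg101.
Among the 30 genes with a window, an E-box occurred in 4 (13.3%, Atg3, Atg5, Atg7 and Atg14), against 8.09% of 27025 genes of all kinds. The longer TCACGTGA, which contains the E-box and is the core of the CLEAR element of lysosome genes, occurred in the Atg3 window (3.33%, against 1.12% of genes), and the full CLEAR element, which adds G before and C after that core, in none (0.37% of genes). The antioxidant response element core occurred in 16.7% of the 30 genes, against 14.0% of all genes, and the GC box in 70.0%, against 38.2%. The TATA box occurred in Sqstm1 alone among the 30 (3.33%, against 15.7% of all genes). The 34 windows of these 30 genes had a median GC content of 61.0% and 21 CpG dinucleotides, against 52.7% and 7 over all 32851 windows, which include noncoding genes.

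In the ULK1 complex, 3 of the 4 genes tested were higher and 1 was lower. Atg13 (ENSMUSG00000027244, chromosome 2, 91674618 to 91710576), the adaptor that holds the kinase to its partners, stood at 8.93, 12.2 and 9.23 RPKM in the stem-labelled clones, against 2.50, 3.79 and 2.27 RPKM in the others. Ulk1 (ENSMUSG00000029512, chromosome 5, 110784488 to 110810097), the kinase, stood at 8.12, 8.69 and 8.28 RPKM, against 1.89, 3.70 and 3.72 RPKM in the other clones. For neither gene did the groups overlap, and the stem-labelled values of Ulk1 lay close together. The log2 fold changes were 1.54 ± 0.22 for Atg13 (SE, adjusted p = 0.000519) and 1.23 ± 0.23 for Ulk1 (adjusted p = 0.00195), or 1.10 and 1.17 after the correction. Atg101 (ENSMUSG00000037204, chromosome 15, 101284301 to 101290934), the partner that stabilises ATG13, went the other way, at 23.4, 32.1 and 15.3 RPKM in the stem-labelled clones, against 161, 78.4 and 129 RPKM in the others. It was lower in every stem-labelled library, by -2.33 ± 0.34 (adjusted p = 0.000547), and by -0.97 after the correction (adjusted p = 0.0163). Partners in 1 complex thus differed between the kinds of clone in opposite directions, in each of the 16 alternative settings. Ulk2, a second ULK kinase of lower level, averaged 2.11 ± 0.464 RPKM in the stem-labelled and 0.724 ± 0.352 RPKM in the other clones (SD, n = 3 each). Its change of 0.86 ± 0.21 (adjusted p = 0.00733) became 0.20 after the correction, where it did not pass (adjusted p = 0.392). Rb1cc1, which encodes the scaffold FIP200, was below 1 RPKM in every library, at 0.179 to 0.723 RPKM in the stem-labelled and 0.312 to 0.892 RPKM in the other clones, and was not tested.

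All 6 genes of the class III PI3K complex and its regulators lay higher in every stem-labelled library than in any other library, and 5 of the 6 passed. Among all tested genes 35.7% showed such a gap in that direction, and among the 35 autophagy genes 20 did (57.1%). A gap in the lower direction was seen for 6 of the 35 (17.1%) and for 27.8% of all tested genes. The median change of the 6 PI3K genes was 0.88, or 0.09 after the length and GC correction, where 2 were called higher. Atg14 (ENSMUSG00000037526, chromosome 14, 47540894 to 47568434), which directs the complex to autophagosome sites, stood at 3.07, 3.38 and 4.56 RPKM in the stem-labelled clones, against 0.730, 1.07 and 0.806 RPKM in the others. Its change was 1.31 ± 0.19 (adjusted p = 0.000563), or 0.91 after the correction (adjusted p = 0.00357), on 28 to 46 reads per library of the other clones. Uvrag, the subunit that takes the place of ATG14 in the endosomal form of the complex, stood at 2.67, 2.40 and 3.07 RPKM, against 0.659, 1.23 and 0.594 RPKM in the other clones. The change of Uvrag was 1.03 ± 0.20 (adjusted p = 0.00201) but 0.06 after the correction, where it did not pass (adjusted p = 0.752). Ambra1, a scaffold that links the ULK1 and Beclin complexes (chromosome 2, 91730134 to 91918849), rose by 0.94 ± 0.20 (adjusted p = 0.00354) and by 0.52 after the correction (adjusted p = 0.0382). The call of Ambra1 was lost when the replicate number was added to the corrected fit as a block (adjusted p = 0.0608).
Becn1, which encodes the scaffold Beclin of the complex, had values close together within each group, at 5.06, 5.31 and 5.21 RPKM in the stem-labelled clones, against 2.85, 2.80 and 2.64 RPKM in the others. Its change of 0.72 ± 0.17 (adjusted p = 0.0065) was 0.12 after the correction (adjusted p = 0.596). Becn1 shares 3104 bases of exon with Cntd1 on the opposite strand, which was at 0.0149 to 0.0351 RPKM in the stem-labelled libraries and at 0 in the others. The strand used in counting is not given, so reads of genes that overlap on opposite strands cannot be told apart. Pik3r4, the regulatory subunit VPS15, changed by 0.82 ± 0.23 (adjusted p = 0.0126) and by -0.13 after the correction, and its call was lost with no filter on low values (adjusted p = 0.0513). Pik3c3, the lipid kinase itself, averaged 3.89 ± 0.128 RPKM in the stem-labelled and 2.60 ± 0.544 RPKM in the other clones (SD, n = 3 each) and did not pass (0.45 ± 0.19, adjusted p = 0.0697). The correction took Pik3c3 to -0.06.

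Among the genes for lipid supply and PI3P binding, the paralogs of ATG2, which carries lipids into the growing membrane, parted. Atg2b stood at 4.16, 3.73 and 5.07 RPKM in the stem-labelled clones, against 1.35, 1.67 and 0.761 RPKM in the others. Atg2a stood at 9.75, 11 and 10.8 RPKM, against 16.2, 15.7 and 12.7 RPKM in the other clones. Neither gene's groups overlapped, with Atg2b high and Atg2a low in the stem-labelled clones. Atg2b changed by 1.25 ± 0.21 (adjusted p = 0.00119) and Atg2a by -0.46 ± 0.20 (adjusted p = 0.0707). After the correction the calls changed over, with Atg2b at 0.23 (adjusted p = 0.28) and Atg2a called lower at -0.46 (adjusted p = 0.0428), and on rescaling Atg2a stood at 0.41 (adjusted p = 0.151). Wipi1, a PI3P reader, averaged 7.31 ± 0.269 RPKM in the stem-labelled and 4.81 ± 0.744 RPKM in the other clones (SD, n = 3 each), a change of 0.52 ± 0.19 (adjusted p = 0.0402). That call was lost on leaving out any 1 library other than replicate 1 of the other clones (adjusted p = 0.0559 to 0.136), with the replicate block (adjusted p = 0.0853) and with voom weights on the recovered reads (adjusted p = 0.102). It stood at -0.01 after the correction. Wipi2, the WIPI protein that recruits ATG16L1, was at 10.8, 11 and 12.3 RPKM in the stem-labelled clones, against 7.35, 9.66 and 10.0 RPKM in the others (0.31 ± 0.20, adjusted p = 0.21), and was called lower after the correction (-0.65, adjusted p = 0.0149). Atg9a, the lipid scramblase that travels in vesicles, overlapped between the groups (0.15 ± 0.21, adjusted p = 0.551) and has 42.3% of its 50-base stretches in common with other annotated genes, chiefly Gm29253 on the same strand. Vmp1, a lipid scramblase of the endoplasmic reticulum, was at 21.7, 27.7 and 26.3 RPKM in the stem-labelled clones, against 25.4, 18.8 and 52.6 RPKM in the others. Replicate 3 of the other clones stood apart there, the change was -0.22 ± 0.34 (adjusted p = 0.607), and it turned to 0.19 without that library.

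The conjugation genes held the largest decrease among the 35, that of Atg4d, and the increase of Atg12. In all 2 of the 7 tested were called higher and 2 lower, or 3 and 3 after the correction. Atg4d (ENSMUSG00000002820, chromosome 9, 21265299 to 21274368) encodes an ATG4 protease, the family that trims ATG8 proteins and later frees them from membranes. It stood at 9.37, 8.56 and 8.49 RPKM in the stem-labelled clones, against 237, 92.5 and 68.9 RPKM in the others. The stem-labelled values were close together and all far below the others, among which replicate 1 was highest. The change was -3.56 ± 0.40 (adjusted p = 0.000179), or -3.35 after the correction and -2.67 on rescaling. Without replicate 1 of the other clones it was -3.04 (adjusted p = 0.000792). In the GENCODE M21 annotation the exons of Atg4d overlap 1405 bases of Kri1 on the opposite strand, and Kri1 was at 3.38 to 4.29 RPKM in the stem-labelled and 3.32 to 4.86 RPKM in the other clones. The gene length behind the RPKM of Atg4d is 2541 bases, against 7264 bases of annotated exon in GENCODE M21, which scales all 6 libraries alike. Atg4b, the main ATG4 protease, averaged 5.86 ± 0.481 RPKM in the stem-labelled and 10.7 ± 2.44 RPKM in the other clones (SD, n = 3 each). It changed by -0.75 ± 0.21 (adjusted p = 0.0148) and by -1.68 after the correction (adjusted p = 0.000483), but stood at 0.09 on rescaling (adjusted p = 0.757). Its call was also lost without stem-labelled replicate 3 (-0.69, adjusted p = 0.0516) or without replicate 3 of the other clones (-0.60, adjusted p = 0.0518).
Atg12, the ubiquitin-like protein joined to ATG5, was at 8.50, 12.5 and 12.6 RPKM in the stem-labelled clones, against 5.08, 3.16 and 2.55 RPKM in the others. It was higher in each stem-labelled library, by 1.43 ± 0.26 (adjusted p = 0.00149), and by 1.65 after the correction. Its partner Atg5 was at 7.15, 8.23 and 7.62 RPKM, against 4.53, 2.77 and 6.67 RPKM in the other clones. Atg5 just missed the threshold (0.67 ± 0.26, adjusted p = 0.0532). It passed after the correction (0.93, adjusted p = 0.00818), on both rescalings, and without replicate 3 of the other clones, its highest library there (0.92, adjusted p = 0.0101). Atg16l1, the third protein of that complex, averaged 3.78 ± 0.207 RPKM in the stem-labelled and 2 ± 0.367 RPKM in the other clones (SD, n = 3 each), a change of 0.68 ± 0.18 (adjusted p = 0.0116) that stood at -0.08 after the correction. Atg3, the E2-like enzyme that passes ATG8 to lipid, was at 5.33, 5.70 and 5.31 RPKM, against 5.05, 3.75 and 3.21 RPKM in the other clones. It did not pass (0.38 ± 0.20, adjusted p = 0.134) but was called higher after the correction (0.92, adjusted p = 0.0066). Atg7, the E1-like enzyme of both conjugation branches, averaged 4.47 ± 0.595 RPKM in the stem-labelled and 4.96 ± 1.74 RPKM in the other clones (SD, n = 3 each; -0.09 ± 0.24, adjusted p = 0.756), and after the correction it was called lower (-0.80, adjusted p = 0.00733). Atg10, the E2-like enzyme for ATG12, was at 0.371 to 0.907 RPKM in the stem-labelled and 0.599 to 1.48 RPKM in the other clones and was not tested.

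**Figure D2:**
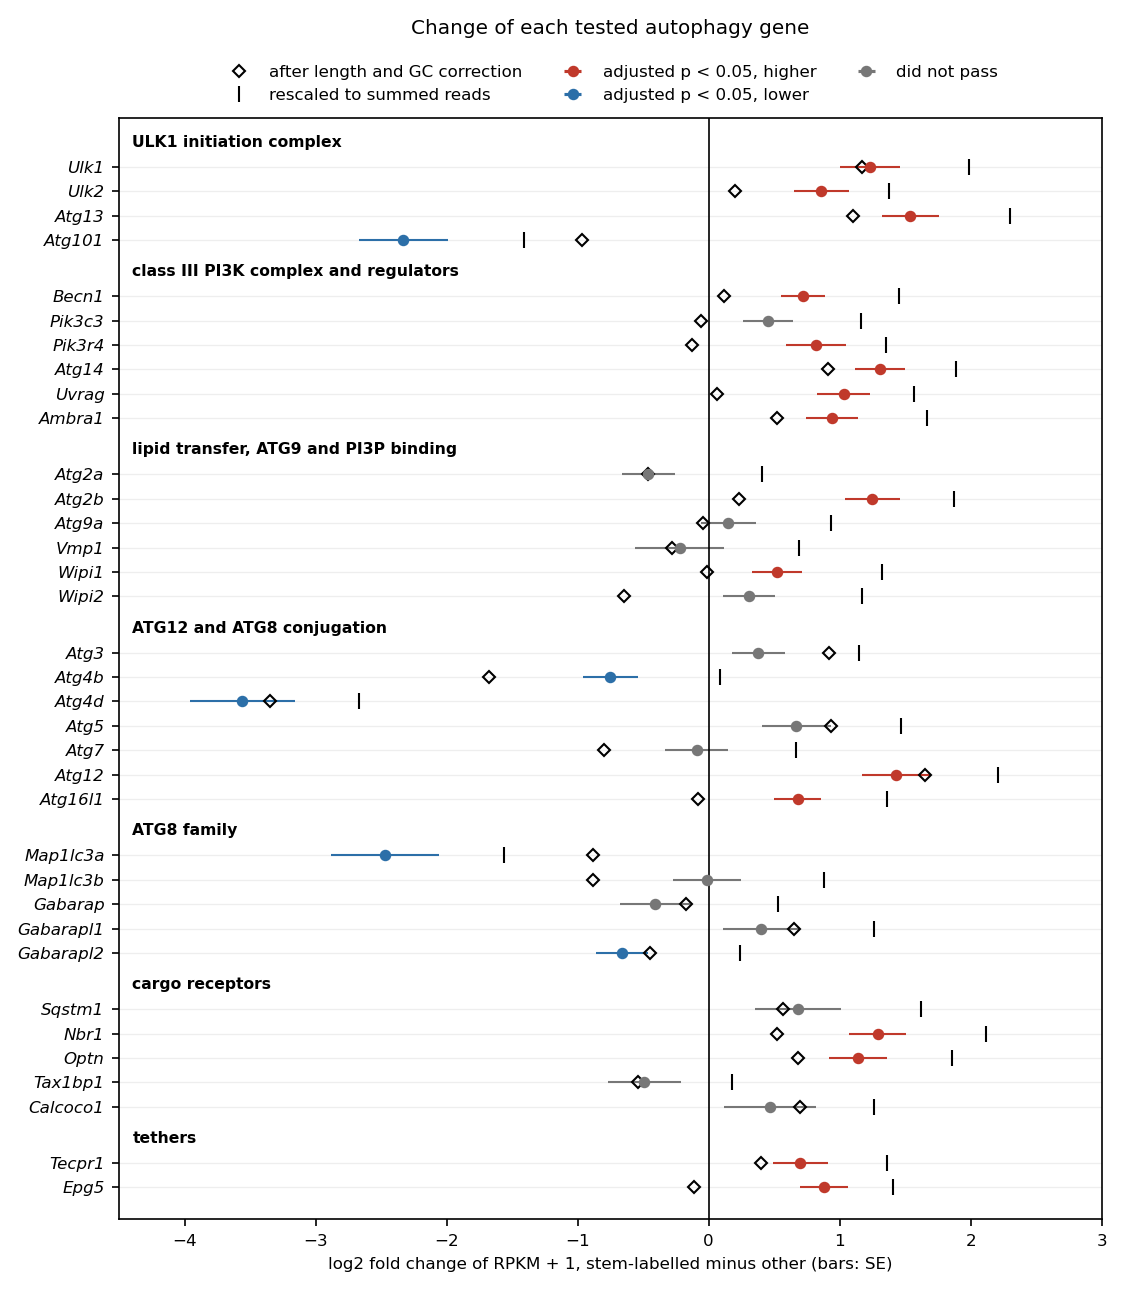
Log2 fold change of RPKM + 1 (stem-labelled minus other) of the 35 tested autophagy genes, by role, with bars for the SE and colours for genes called higher, called lower or not passed. Diamonds show the change after the length and GC correction and vertical ticks the change on rescaling to summed reads, which is higher for every gene. Atg4d is the lowest point at -3.56 and Atg13 the highest at 1.54.

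Of the 5 genes of the ATG8 family 2 were called lower and 3 did not pass. Map1lc3a (ENSMUSG00000027602, chromosome 2, 155276297 to 155278073), which encodes LC3A, was at 8.09, 30.3 and 11.3 RPKM in the stem-labelled clones, against 93.7, 82.4 and 73.7 RPKM in the others. The groups did not overlap, although stem-labelled replicate 2 stood well above the other 2 stem-labelled libraries. The change was -2.47 ± 0.41 (adjusted p = 0.000945), but after the correction it was -0.88 and did not pass (adjusted p = 0.084). Map1lc3b, which encodes LC3B, the form used to follow autophagosomes by antibody, was at 15.5, 26.6 and 19.4 RPKM, against 15.7, 22.4 and 23.5 RPKM in the other clones. These values overlapped throughout (-0.01 ± 0.26, adjusted p = 0.969). After the correction the change of Map1lc3b was -0.88 (adjusted p = 0.0153), and on rescaling it was 0.88 (adjusted p = 0.0124), a scaling under which the median of all genes was 0.86. The change of Map1lc3b therefore lay close to that of the median gene there. Gabarap had the highest level of the family in every library, at 147, 182 and 111 RPKM in the stem-labelled clones, against 174, 196 and 204 RPKM in the others, and did not pass (-0.41 ± 0.27, adjusted p = 0.223). Gabarapl2 was at 15.3, 18.9 and 15.9 RPKM, against 25.3, 27.2 and 28.1 RPKM in the other clones (-0.66 ± 0.20, adjusted p = 0.0184). The groups of Gabarapl2 did not overlap. Its call was lost without stem-labelled replicate 1 (adjusted p = 0.0761), stem-labelled replicate 3 (adjusted p = 0.0507) or replicate 3 of the other clones (adjusted p = 0.0539). It was lost after the correction too (-0.45, adjusted p = 0.0585), and on rescaling the change was 0.24 (adjusted p = 0.373). Gabarapl2 has 17% and Map1lc3b 9.2% of its 50-base stretches in common with other annotated genes, so some of their reads could belong elsewhere. Gabarapl1 averaged 15.1 ± 6.44 RPKM in the stem-labelled and 10.7 ± 1.61 RPKM in the other clones (SD, n = 3 each) and did not pass (0.40 ± 0.29, adjusted p = 0.273).

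The make-up of the family within a library does not depend on the library total. Of the family's summed RPKM, Map1lc3a gave 7.17 ± 3.39% in stem-labelled clones and 25.1 ± 3.98% in the other clones (SD, n = 3 each). Gabarap gave 68.4 ± 6.02% in stem-labelled and 57.5 ± 2.59% in other clones, Map1lc3b gave 9.58 ± 1.67% in stem-labelled and 6.14 ± 1.06% in other clones, and Gabarapl1 gave 6.94 ± 1.88% in stem-labelled and 3.2 ± 0.378% in other clones. For these 4 shares the groups did not overlap, with Map1lc3a low and the other 3 high in stem-labelled clones. Gabarapl2 gave 7.93 ± 1.24% in stem-labelled and 8.06 ± 0.176% in other clones. Shares within a library sum to a fixed whole, so a lower Map1lc3a share by itself raises those of the other genes. Mean RPKM in stem-labelled and other clones was 147 and 192 for Gabarap, 20.5 and 20.5 for Map1lc3b, and 15.1 and 10.7 for Gabarapl1. For all 3 the RPKM overlapped between the groups. Shares with Map1lc3a left out were not tested. The family's sum was 196, 280 and 172 RPKM in the stem-labelled clones, against 318, 341 and 340 RPKM in the others. Unlike the shares, that sum depends on the library total. The median log2 fold change of the 5 genes was -0.41 on the deposited scale and 0.53 on rescaling to summed reads. Shares can still follow gene length, since Map1lc3a is the shortest gene of the family at 1181 bases and Map1lc3b the longest at 7517 bases.

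**Figure D3:**
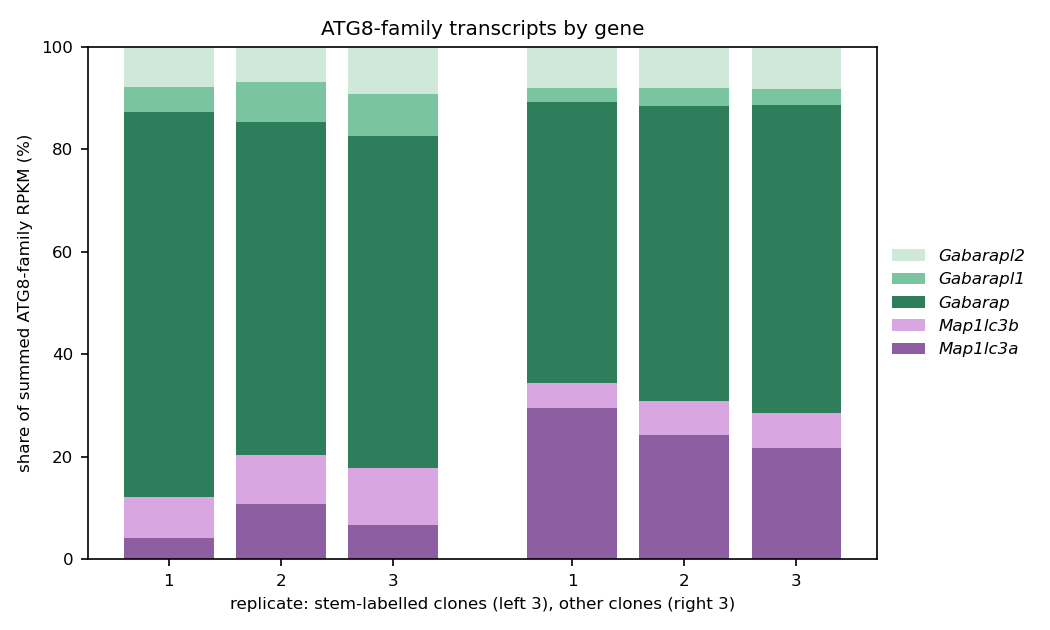
Share of the summed RPKM of the 5 ATG8-family genes taken by each gene, as stacked bars that add to 100%, with the 3 stem-labelled libraries on the left and the 3 libraries of the other clones on the right. The Map1lc3a segment averages 7.17% on the left and 25.1% on the right, and Gabarap is the largest segment in all 6 libraries.

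Cargo receptors were higher or did not pass. Nbr1, a receptor for ubiquitin-tagged cargo, was at 12.1, 14.2 and 18.6 RPKM in the stem-labelled clones, against 5.79, 6.13 and 4.48 RPKM in the others. Optn, which encodes optineurin, a receptor for damaged mitochondria and bacteria, was at 7.12, 5.62 and 6.51 RPKM, against 2.79, 2.89 and 1.53 RPKM in the other clones. Neither gene's groups overlapped. The changes were 1.29 ± 0.22 for Nbr1 (adjusted p = 0.00121) and 1.14 ± 0.22 for Optn (adjusted p = 0.00223). After the correction they were 0.52 and 0.68 (adjusted p = 0.0387 and 0.0225), and the call of Nbr1 was lost there when the replicate block was added (adjusted p = 0.0832). Sqstm1 had the highest RPKM of the 37 genes in each stem-labelled library, at 246, 367 and 215 RPKM in the stem-labelled clones, against 123, 231 and 164 RPKM in the others. The groups overlapped, with stem-labelled replicate 3 below replicate 2 of the other clones, and the change of 0.68 ± 0.33 did not pass (adjusted p = 0.105). It passed on rescaling (1.62, adjusted p = 0.000873), with upper-quartile scaling (0.94, adjusted p = 0.0214) and without replicate 2 of the other clones (0.91, adjusted p = 0.0468). Calcoco1, a receptor for endoplasmic reticulum, averaged 7.61 ± 2.81 RPKM in the stem-labelled and 5.40 ± 2.54 RPKM in the other clones (SD, n = 3 each; 0.47 ± 0.35, adjusted p = 0.277). Tax1bp1, a receptor that acts beside p62 and NBR1, was at 1.2, 1.62 and 3.66 RPKM, against 3.36, 3.61 and 2.71 RPKM in the other clones. Stem-labelled replicates 1 and 2 lay below all libraries of the other clones and stem-labelled replicate 3 above them. The change was -0.49 ± 0.28 (adjusted p = 0.16), and -0.81 without that library (adjusted p = 0.0143).

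Both tethers that join autophagosomes to lysosomes were called higher. Epg5 was at 1.96, 2.24 and 2.62 RPKM in the stem-labelled clones, against 0.937, 0.698 and 0.698 RPKM in the others (0.88 ± 0.18, adjusted p = 0.0026). Epg5 was the 1 tested member below 1 RPKM in all libraries of the other clones, and it stood at -0.11 after the correction. Tecpr1 was at 4.64, 3.54 and 2.84 RPKM, against 1.96, 2.14 and 1.49 RPKM in the other clones (0.70 ± 0.21, adjusted p = 0.0183). The groups of both genes were apart. The call of Tecpr1 was lost after the correction (0.40, adjusted p = 0.105), with no filter (adjusted p = 0.0579), without stem-labelled replicate 1 (0.55, adjusted p = 0.077) and without replicate 3 of the other clones (0.60, adjusted p = 0.0582).

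Ratios between related genes in the same library, free of the library total, were taken for 8 pairs chosen with their values known. The ratio of Map1lc3b to Map1lc3a was 1.92, 0.879 and 1.72 in the stem-labelled clones, against 0.168, 0.272 and 0.319 in the others. That of Atg4b to Atg4d was 0.646, 0.727 and 0.626, against 0.0354, 0.113 and 0.192 in the other clones. Atg2b to Atg2a gave 0.426, 0.340 and 0.470, against 0.0835, 0.106 and 0.0599 in the other clones. In each of these pairs the ratio was higher in every stem-labelled library. Gabarapl1 to Gabarapl2, a pair of similar gene length, gave 0.612, 1.17 and 0.884, against 0.356, 0.450 and 0.386 in the other clones. The mean log2 ratios of these 4 pairs differed by 2.55, 2.86, 2.34 and 1.12 (stem-labelled minus other), each with a two-sided exact permutation p of 0.1, the smallest that 3 libraries against 3 can give, and 0.2 after adjustment over the 8 pairs. The ratios were not corrected for gene length, which the changes followed. Map1lc3b is 6.36 times as long as Map1lc3a, Atg4b 3.26 times as long as Atg4d, and Atg2b 1.32 times as long as Atg2a. After the length and GC correction Map1lc3b and Map1lc3a changed alike, both by -0.88. Atg4b and Atg4d then changed by -1.68 and -3.35, Atg2b and Atg2a by 0.23 and -0.46, and Gabarapl1 and Gabarapl2 by 0.65 and -0.45. The other pairs overlapped between the groups. The log2 ratio of Ulk1 to Ulk2 averaged 2.01 ± 0.32 in stem-labelled and 2.16 ± 1.26 in other clones (SD, n = 3 each), and that of Sqstm1 to Nbr1 averaged 4.19 ± 0.60 in stem-labelled and 4.95 ± 0.47 in other clones. The log2 ratio of Atg14 to Uvrag averaged 0.43 ± 0.19 in stem-labelled and 0.13 ± 0.32 in other clones, and that of Wipi1 to Wipi2 averaged -0.63 ± 0.05 in stem-labelled and -0.91 ± 0.45 in other clones.

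**Figure D4:**
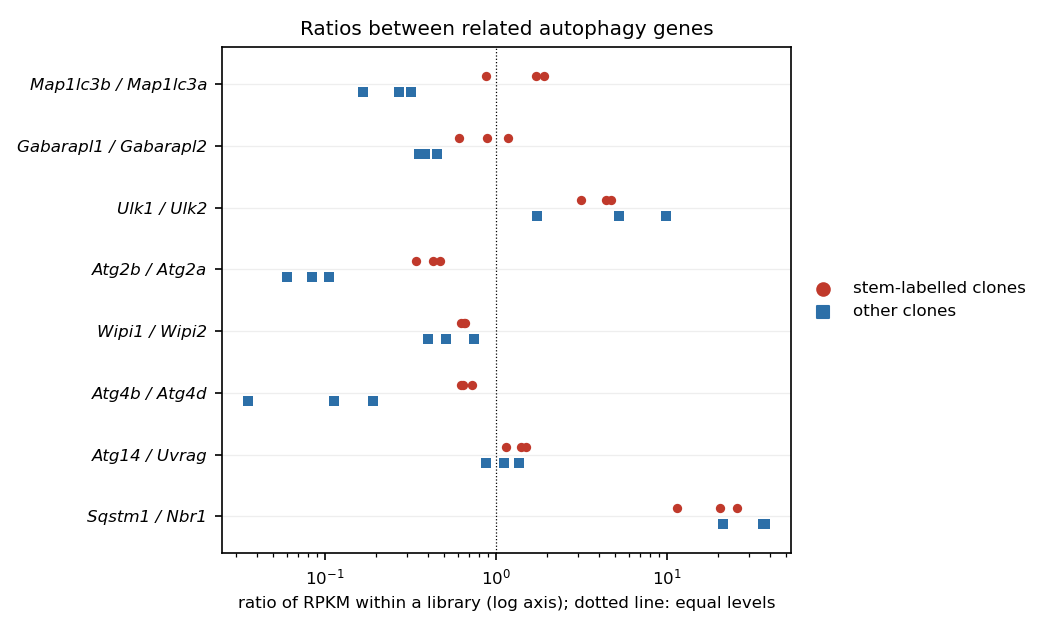
Ratio of the RPKM of 2 related autophagy genes within each library on a log axis, for 8 pairs, with stem-labelled libraries as upper red circles and libraries of the other clones as lower blue squares. The groups are apart for Map1lc3b to Map1lc3a, Gabarapl1 to Gabarapl2, Atg2b to Atg2a and Atg4b to Atg4d, with the red circles to the right, and they overlap for the other 4 pairs.

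Libraries of 1 kind of clone also differed among themselves. Stem-labelled replicate 2 gave the highest stem-labelled value for 20 of the 37 genes (54.1%), against 30.7% of all tested genes, and for all 5 ATG8-family genes. Stem-labelled replicate 1 gave the lowest for 24 (64.9%), a share that was not computed over all tested genes. It gave the highest for 8.11% of the 37 genes, against 36.4% of all tested genes. Among the other clones the highest value fell in replicate 1 for 29.7%, in replicate 2 for 43.2% and in replicate 3 for 27% of the 37 genes, near the 32.2%, 39% and 28.8% of all tested genes.

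The changes followed gene length. Across the 35 tested genes log2 length and log2 fold change had a Pearson r of 0.46 and a Spearman rho of 0.24, and across all 10097 genes 0.48 and 0.49, a description over genes that share the same 6 libraries. Of tested genes from 1075 to 1789 bases, where Atg101 and Map1lc3a lie, 48.5% were called lower and 7.23% higher. Of genes from 8322 to 38847 bases, where Atg2b, Uvrag, Epg5, Pik3r4, Atg16l1, Wipi2, Tax1bp1 and Tecpr1 lie, 59.6% were called higher and 4.76% lower. Calls that went against the tendency of their length were those of Atg12 (2492 bases, with 21.4% of genes of 2426 to 3010 bases called higher) and Atg4b (8278 bases, with 8.70% of genes of 6337 to 8322 bases called lower). For Atg12 the files give that length, against 7711 bases of annotated exon. The length in the files equals the union of all annotated exons for 29 of the 37 genes. For Map1lc3b that is 7517 bases against 4138 bases of its longest transcript, so RPKM compares levels between genes only per base of that union.

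**Figure D5:**
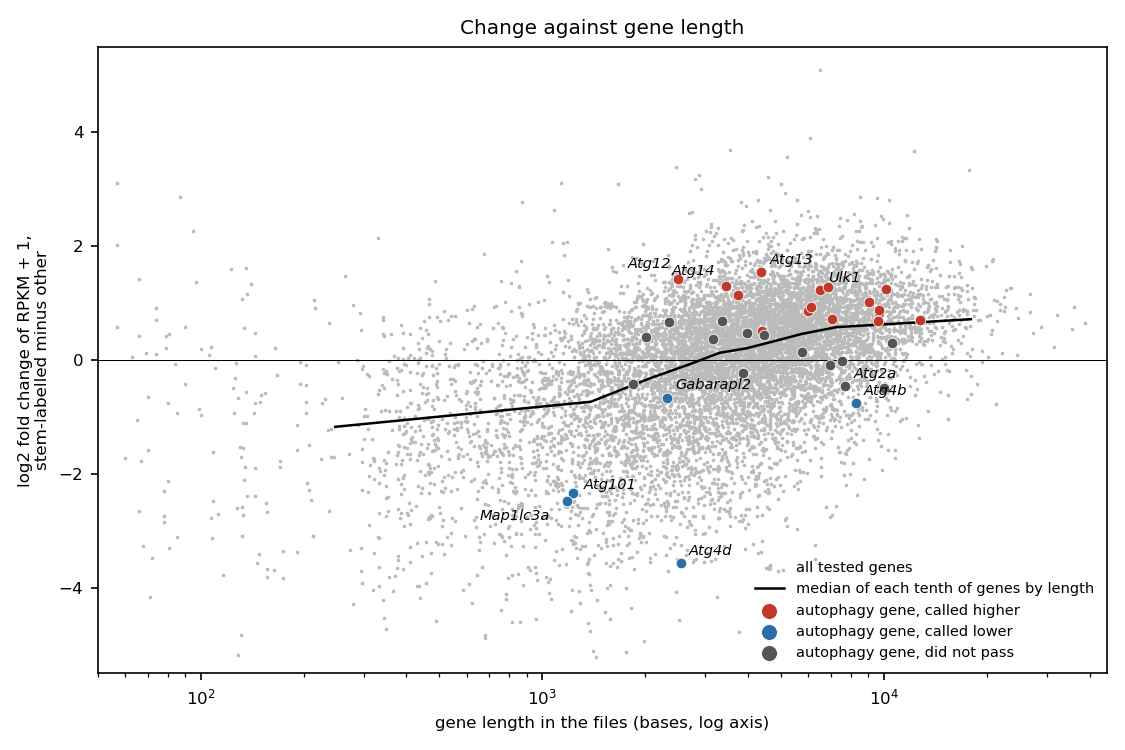
Log2 fold change of RPKM + 1 (stem-labelled minus other) against gene length on a log axis for all 10097 tested genes (grey) and the 35 tested autophagy genes (coloured by call). The black line joins the medians of 10 groups of genes by length, from -1.17 in the shortest to 0.72 in the longest, and Atg4d, Atg101 and Map1lc3a lie below it and Atg12, Atg14 and Atg13 above it.

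The rest of the pathway was read from 6 lists of 86 genes with values, of which 77 were tested, 30 were called higher (39%), 10 lower (13%) and 37 did not pass, with a median change of 0.35, against 29.9% higher and 25.4% lower of all tested genes. After the correction 24 were higher and 11 lower, where 25.9% and 22.0% of all genes were called, and on rescaling 56 and 5, where 58.7% and 12.3% were. The count of each list is a description to be read against these shares. Of the 77 genes, 10 were below 1 RPKM in at least 1 library of the other clones and in no stem-labelled library. Of 15 genes of mTORC1, the kinase complex that restrains autophagy when amino acids are plentiful, and its activators, 6 were higher and 4 lower. Flcn, the folliculin gene, whose product activates the Rag GTPases RagC and RagD, averaged 19.7 ± 1.28 RPKM in the stem-labelled and 3.85 ± 0.632 RPKM in the other clones (SD, n = 3 each; 2.10 ± 0.19, adjusted p = 0.000117). Rragc, which encodes RagC, changed by 1.78 ± 0.21 (adjusted p = 0.00021) and Rptor, which encodes the mTORC1 scaffold Raptor, by 1.67 ± 0.20 (adjusted p = 0.000251). All 3 also passed after the correction, at 1.94, 1.51 and 1.19. The 4 lower genes were Akt1s1 (-2.24), Lamtor1 (-1.5), Lamtor2 (-1.73) and Lamtor4 (-2.6). After the correction they stood at -1.63, -0.96, -0.46 and -1.38, where Lamtor2 did not pass.
Of 17 genes of the TSC complex, AMPK and other sensors that oppose mTORC1, 5 were higher and 1 lower. Tsc1 averaged 2.68 ± 0.683 RPKM in the stem-labelled and 0.306 ± 0.0336 RPKM in the other clones (SD, n = 3 each; 1.48 ± 0.19, adjusted p = 0.000301, or 0.45 after the correction). It was below 1 RPKM in all libraries of the other clones, so it had to differ to be tested. Sesn1, which encodes a sestrin, changed by 1.47 ± 0.25 (adjusted p = 0.00108), and Tbc1d7, the third TSC subunit, by -0.99 ± 0.19 (adjusted p = 0.0023). The correction left Sesn1 at 1.10 and called, and Tbc1d7 at -0.30 and not called. On rescaling 14 of the list were called higher, with upper-quartile scaling 8, and with no filter 3. Without stem-labelled replicate 3 the count was 2, and without replicate 3 of the other clones it was 3.
Of 14 genes of fusion with the lysosome, 6 were higher and 1 lower, or 2 lower without stem-labelled replicate 3. The lower one, Vamp8, a SNARE on lysosomes, averaged 31.8 ± 9.79 RPKM in the stem-labelled and 111 ± 18.8 RPKM in the other clones (SD, n = 3 each; -1.80 ± 0.27, adjusted p = 0.000621, or -1.79 after the correction). Vps33a, a subunit of the HOPS tether, changed by 1.22 ± 0.22 (adjusted p = 0.00135) and Tgfbrap1, of the related CORVET tether, by 1.13 ± 0.17 (adjusted p = 0.000697), which the correction took to 0.12. Tgfbrap1, too, was tested only because it reached 1 RPKM in the stem-labelled libraries.
Of 13 mitophagy and ER-phagy genes, 2 were higher and 3 lower, or 1 higher without stem-labelled replicate 3. Fkbp8, a mitochondrial receptor for LC3, averaged 71.6 ± 17.9 RPKM in the stem-labelled and 942 ± 417 RPKM in the other clones (SD, n = 3 each; -3.65 ± 0.36, adjusted p = 0.000131, or -3.27 after the correction). Bcl2l13, another mitochondrial receptor, changed by 0.88 ± 0.18 (adjusted p = 0.003) and Tex264, a receptor for endoplasmic reticulum, by -1 ± 0.26 (adjusted p = 0.00915), and neither passed after the correction.
Of 13 further ATG proteins, WIPI relatives and receptors, 8 were higher and 1 lower. Nrbf2, a subunit of the ATG14 form of the PI3K complex, averaged 6.21 ± 0.504 RPKM in the stem-labelled and 2.55 ± 0.175 RPKM in the other clones (SD, n = 3 each; 1.02 ± 0.18, adjusted p = 0.00127, or 1.28 after the correction). Tollip, a ubiquitin-binding receptor, changed by 1.30 ± 0.22 (adjusted p = 0.00111) and Wdfy3, the aggregate-clearing scaffold ALFY, by 1.05 ± 0.20 (adjusted p = 0.00219), or 0.74 and -0.03 after the correction.
Of 5 transcription factors of autophagy and lysosome genes tested, 3 were higher and 2 did not pass, or 2 were higher and 1 lower after the correction. Foxo3 changed by 1.45 ± 0.20 (adjusted p = 0.000409) and Nfe2l2, which encodes NRF2, a factor of oxidative stress that activates Sqstm1, by 1.33 ± 0.20 (adjusted p = 0.000549). Both passed after the correction, at 0.73 and 0.98. Zkscan3, a repressor of autophagy genes, changed by 0.78 ± 0.17 (adjusted p = 0.00418) and stood at -0.01 after it, and it was tested only because it reached 1 RPKM in the stem-labelled libraries. The factors that did not pass were Tfeb, the main activator of lysosome genes (-0.49 ± 0.28, adjusted p = 0.169), and its relative Tfe3 (-0.25 ± 0.21, adjusted p = 0.334), which was called lower after the correction (-1.17, adjusted p = 0.00148).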

How the data were processed

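RNA from 6 libraries of 4T1 clones was sequenced, 3 stem-labelled and 3 other by tissue label, with replicate numbers from the titles. The deposited values are RPKM per gene made by the authors, with a gene length in each file. Per the submitters' processing notes, TopHat2 2.0.9, Bowtie2 2.0.6 and mm9 are the tools and build named, without roles. The counting program and strand are not given in the sources used here. GENCODE M21 holds the identifiers of 99.6% of the genes, 80.6% of which have exactly its start and end on GRCm38, as did 29 of the 37 members. Coordinates are those of the files and are read as GRCm38.

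Multiplied by gene length, 100% of the nonzero values in each library were whole multiples of 1 step (tolerance 0.01), which returned the reads. Per kilobase of gene, 1 read equals 0.0311 to 0.0993 RPKM. Tested members had at least 272 reads in each stem-labelled library and at least 28 in each of the others. Precision is judged from the spread between libraries.

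limma 3.58.1 in R 4.3.3, with a variance trend, was fitted to log2(RPKM + 1) of the 10097 genes that reached 1 RPKM in 3 or more of the 6 libraries, which removed 9082. Tests were two-sided, with Benjamini-Hochberg adjusted p under 0.05 over all tested genes called changed. The added 1 makes the changes of low genes smaller. The fit was tested on simulated data. The length and GC correction subtracted, per library, natural splines (5 degrees of freedom each) fitted to deviations from the gene means, and it may also remove differences between the clones that follow length or GC content. The other settings varied were the replicate block (alone and with the correction), upper-quartile scaling, rescaling to summed reads, no filter, mean RPKM at least 5, a pseudocount of 0.1, no variance trend, limma-voom on the recovered reads, and leaving out each library with the tested genes kept. All members are described, and up to 3 genes with the smallest p from each further list, with the lower genes of the mTORC1 list and the remaining tested transcription factors added. Members, lists and settings were chosen with earlier results of these data known. Earlier results had already shown more of a list of autophagy and lysosome genes higher than lower in the stem-labelled clones, so the counts here are not independent of that.

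Shared sequence is the percentage of 50-base stretches in the longest transcript of a gene that also occur in transcripts of other genes. Of the 37 members, 12 share exon bases with a gene on the opposite strand. Whether a stem-labelled and an other library with the same number came from the same experiment is not stated, and the comparison was fitted without a replicate block.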

Additional observations from a re-analysis of the deposited data

How the results depend on the processing

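Of 545 comparisons of a member's change with an alternative setting, 453 kept direction and call. With the direction kept, 34 lost the call and 27 gained one, and 31 changed sign. Those 31 hold further lost calls, such as those of Wipi1 and Epg5 after the correction, and gained ones, such as that of Wipi2. The count of members called higher was 16, and 9 after the length and GC correction, 8 with the replicate block and that correction together, 26 on rescaling to summed reads and 4 with mean RPKM at least 5, which tests 20 of the members. It was 14 to 16 on leaving out 1 library. The count called lower was 5, and 3 on rescaling. It was 3 to 5 on leaving out 1 library, with 3 without replicate 3 of the other clones. Other settings kept both counts within 1.5 times. After the correction, with and without the block, the changes of Wipi1 (-0.01), Atg9a (-0.04), Pik3c3 (-0.06), Atg16l1 (-0.08), Epg5 (-0.11), Pik3r4 (-0.13) and Wipi2 (-0.65) were below 0. On rescaling those of Atg4b (0.09), Tax1bp1 (0.18), Gabarapl2 (0.24), Atg2a (0.41), Gabarap (0.53), Atg7 (0.67), Vmp1 (0.69) and Map1lc3b (0.88) were above 0, where the median of all genes was 0.86, against 0.11 on the deposited scale. With upper-quartile scaling Vmp1 (0.03), Atg7 (0.12) and Map1lc3b (0.24) changed sign. On leaving out 1 library Map1lc3b ran from -0.21 to 0.16, Atg7 from -0.21 to 0.14, and Vmp1 from -0.53 to 0.19. Atg7 was above 0 without replicate 2 of the other clones and Vmp1 without their replicate 3. Genes called over the whole table were 3014 higher and 2563 lower, 5926 and 1245 on rescaling, and 1405 higher with mean RPKM at least 5. In the further lists together 30 were higher and 10 lower, 56 and 5 on rescaling, and 15 higher with mean RPKM at least 5.

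Deviations from the group means of libraries with the same replicate number correlated at -0.12, 0.03 and -0.08. For libraries with different numbers the correlations ran from -0.11 to 0.19. Deviations from a mean of 3 libraries depend on each other, so these values cannot show whether the numbers pair the libraries. With the replicate block 15 members were called higher and 5 lower, and Wipi1 alone lost its call. Depth was lowest in the other clones for Atg14, with 28 to 46 reads, Ulk2, with 28 to 77, Pik3r4, with 39 to 150, and Uvrag, with 54 to 138. The cause of the changes between settings was not tested.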
